A study of Mus musculus with 4 samples.

Results

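The anoctamins are a family of membrane proteins with 10 genes in the mouse, Ano1 to Ano10, and all 10 were found by symbol among the 47937 genes of the count table. The family was taken up because of Ano3: it was chosen by its genistein response, a rise from near zero, so the change of Ano3 is given as a description with no test. The other 9 members entered by family name. The libraries were total RNA of mouse embryonic fibroblasts (MEF cells), connective tissue cells grown from mouse embryos. Of the 4 libraries, 2 came from wild-type, untreated control cells and 2 from cells exposed to 50 µM genistein, a plant isoflavone, for 24 h, all grown in serum-containing medium. In other assays of the paper, untreated cells received the solvent DMSO alone. Its sequencing methods do not say whether these untreated libraries did. The genotype field of the treated libraries gives the treatment in place of a genotype. The labels do not say that libraries of a group came from separate cultures, so p-values measure the spread between these libraries, which may be technical.

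Anoctamins respond to intracellular calcium in different ways. Ano1 and Ano2 are calcium-activated chloride channels, Ano1 in secretory epithelia and smooth muscle and Ano2 in sensory cells of nose and eye. Ano6 is a phospholipid scramblase, which moves lipids such as phosphatidylserine between the leaflets of the plasma membrane, and its loss causes the bleeding disorder Scott syndrome. Ano3 is best known from neurons, where its variants are linked to dystonia and where it has been associated with sodium-activated potassium channels. Ano8 ties the endoplasmic reticulum (ER) to the plasma membrane, and Ano10 is linked to a recessive ataxia. Ano5 is linked to muscular dystrophy, Ano7 is known from prostate, Ano4 from nervous and adrenal tissue, and Ano9 from gut epithelium.

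Promoters of Ano3, Ano1, Ano6 and Ano10 are shown first, because Ano3 has more than 1 annotated start and because Ano6 and Ano10 rose while Ano1 fell. RefSeq (GRCm38.p6) gave 11 promoters for 8 members, each of 300 bases, from 250 before to 50 after the start site. Ano8 and Ano9 were not among them. The sequences run 5′ to 3′ on the strand of the gene. Capitals mark matches, on either strand, to 7 motifs searched: the TATA box (TATAAA), the CCAAT box (CCAAT), the GC box (GGGCGG), an E-box (CACGTG), the AP-1 motif (TGANTCA), a heat shock motif (GAANNTTC) and a FOXO motif (GTAAACA). The letters of no motif contain those of another.
Ano3 outer start, chr2:110950195-110950494, minus strand: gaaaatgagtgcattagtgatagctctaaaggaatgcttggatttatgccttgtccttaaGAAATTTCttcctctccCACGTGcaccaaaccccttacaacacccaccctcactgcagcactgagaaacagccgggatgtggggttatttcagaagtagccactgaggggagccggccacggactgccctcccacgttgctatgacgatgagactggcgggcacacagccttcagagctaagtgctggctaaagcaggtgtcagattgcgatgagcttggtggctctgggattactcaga
Ano3 inner start, chr2:110840010-110840309, minus strand: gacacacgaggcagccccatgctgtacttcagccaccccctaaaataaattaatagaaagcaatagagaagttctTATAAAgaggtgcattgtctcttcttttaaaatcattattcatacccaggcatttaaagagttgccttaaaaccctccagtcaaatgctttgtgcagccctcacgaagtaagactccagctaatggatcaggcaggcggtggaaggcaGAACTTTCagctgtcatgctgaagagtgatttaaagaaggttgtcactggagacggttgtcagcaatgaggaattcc
Ano1, chr7:144738524-144738823, minus strand: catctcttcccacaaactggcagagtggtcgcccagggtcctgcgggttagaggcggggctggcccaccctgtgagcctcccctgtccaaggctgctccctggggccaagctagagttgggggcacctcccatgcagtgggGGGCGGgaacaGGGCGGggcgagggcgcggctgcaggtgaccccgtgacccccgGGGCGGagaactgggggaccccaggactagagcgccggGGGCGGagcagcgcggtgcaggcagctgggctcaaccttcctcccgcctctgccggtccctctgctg
Ano6, chr15:95790593-95790892, plus strand: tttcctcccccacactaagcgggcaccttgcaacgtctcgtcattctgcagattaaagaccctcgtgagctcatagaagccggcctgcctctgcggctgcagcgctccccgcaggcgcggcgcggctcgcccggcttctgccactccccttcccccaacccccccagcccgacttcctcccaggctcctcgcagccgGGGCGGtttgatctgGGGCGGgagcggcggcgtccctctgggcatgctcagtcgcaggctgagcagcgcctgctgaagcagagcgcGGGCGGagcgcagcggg
Ano10, chr9:122294374-122294673, minus strand: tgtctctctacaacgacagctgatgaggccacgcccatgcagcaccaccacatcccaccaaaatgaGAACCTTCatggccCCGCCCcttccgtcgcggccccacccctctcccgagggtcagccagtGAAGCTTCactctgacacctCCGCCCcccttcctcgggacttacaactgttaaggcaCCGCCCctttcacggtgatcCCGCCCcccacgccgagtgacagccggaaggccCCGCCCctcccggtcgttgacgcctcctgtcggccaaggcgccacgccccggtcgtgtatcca

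The Ano3 promoters held no GC box, whereas Ano1 held 4, Ano6 held 3 and Ano10 held 5. A GC box was found in 5 of the 11 member promoters and in 35.7% of the 32851 promoters in the table. Ano5 and Ano7 held none either, so its absence was not particular to Ano3. The outer Ano3 promoter had 1 E-box, present in 7.15% of all promoters, and 1 heat shock motif, present in 7.86%. The inner Ano3 promoter, over 100 kb further into the gene, had 1 match to the TATA box letters, present in 13.6%, and 1 heat shock motif. The TATA match lay at -175 from the start site. The Ano10 promoter held 2 heat shock motifs, so the motif was not particular to Ano3. The AP-1 and FOXO motifs were in none of the 11 member promoters, against 7.81% and 3.65% of all promoters, and the CCAAT box, in 37.4% of all promoters, was in 3. By base composition the outer Ano3 promoter lay near the middle of all promoters, with 52.0% G and C and 8 CpG dinucleotides, against medians of 52.7% and 7. The inner one had 43.7% and 4. Ano1, Ano6 and Ano10 had 71.7%, 69.7% and 65.7% G and C, with 18, 29 and 24 CpG. Counts per gene do not show which start was used.

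Total counts ranged from 28591958 to 31464284 per library. The fibroblast label was checked with 10 markers: 9 were expressed, with Col1a1, Col1a2 and Fn1 among the highest, and Thy1 was at 0 in all 4 libraries. Summed over the list, fibroblast markers took 14300 to 14709 CPM, counts scaled to library size, in the untreated and 13416 to 13742 in the genistein libraries. The list of neuron markers summed to 0.334 to 0.460 CPM in the untreated and to 1.35 to 1.52 in the genistein libraries. Immune markers summed to 9.10 to 9.38 against 20.5 to 21.9 CPM, and endothelial markers to 0.835 to 1.03 against 2.85 to 3.25 CPM. The immune sum rose through Cd68, with 84 and 62 against 225 and 210 reads, and Csf1r, with 125 and 119 against 357 and 352. Ptprc had 1 and 0 against 0 and 1, Adgre1 had 0 throughout and Cd14 had 71 and 76 against 73 and 83. The endothelial sum rose mostly through Kdr, with 16 and 19 against 73 and 74 reads, while Cdh5 had 1 and 0 against 0 and 0.

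The family divided by level into 4 members that were plainly expressed in untreated cells, 3 close to the limit of detection and 3 without a read. Levels were compared per length, as RPKM, read counts divided by library size and merged exon length. Ano6 was the highest, with 11.5 and 11.7 RPKM in the untreated libraries, followed by Ano10 with 5.92 and 5.52 and Ano8 with 4.04 and 3.92. Ano1 followed with 1.15 and 1.14. The ranges of these neighbours did not overlap. Ano6 thus lay above 90.4% of all genes in untreated cells, and Ano1 above 73.4%. Ano3, with 0.0139 and 0.0392 RPKM, and Ano2, with 0.0186 and 0.0197, could not be ordered, since their ranges overlapped. In the genistein libraries Ano6, Ano10 and Ano8 were again the 3 highest, with means of 13.5, 7.32 and 4.63 RPKM. Ano3, at 0.947 and 0.90 RPKM, then stood in the fourth place above Ano1, at 0.527 and 0.547.

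**Figure D1:**
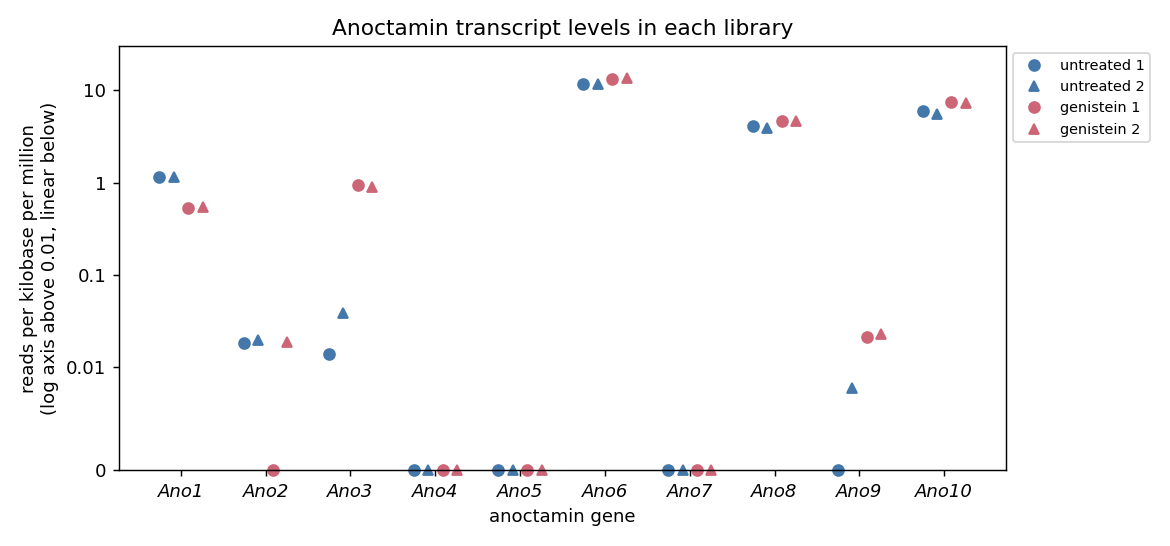
Level of each anoctamin gene in each library, in RPKM, read counts divided by library size and merged exon length; the axis is logarithmic above 0.01 and linear below it, circles and triangles are replicates 1 and 2, blue is untreated and red genistein. Ano6, Ano10 and Ano8 were the 3 highest genes in every library, Ano3 lay at 0.0139 and 0.0392 untreated and at 0.947 and 0.90 with genistein, and Ano4, Ano5 and Ano7 were at 0 throughout.

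Ano3 (ENSMUSG00000074968, chromosome 2, 110655201 to 110950923, minus strand) had 3 and 8 reads untreated and 218 and 192 with genistein. Both genistein libraries were far above both untreated libraries, and the groups did not overlap. Scaled to library size these were normalised counts of 3.0 and 8.47 against 204 and 194. The ratio of the summed, scaled counts was 35.3, with an exact 95% counting interval of 19.5 to 71.3 that reflects the 11 untreated reads. The fit gave 5.11 as the log2 fold change (standard error 0.25), and the value rested on the low untreated counts. Neither the standard error nor the counting interval is a test, since Ano3 was chosen by this rise. Without untreated 1 it was 4.54, a 23.2-fold difference, and without untreated 2 it was 6.0, a 64.0-fold difference. Leaving out either genistein library gave 5.08 and 5.14. By log2 fold change Ano3 ranked 15 among the 16240 tested genes, but it was chosen by this value. It also passed the filter on low counts through the genistein libraries alone, so nothing is read from the rank. Its mean normalised count of 102.6 was just above the minimum of 100 that the study used. In a bulk culture, many cells with little Ano3 RNA and few cells with much of it cannot be told apart.

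Genes around Ano3 were listed, because Ano3 spans 295723 bp and holds another gene. Muc15, a mucin gene on the opposite strand inside Ano3, shares 61 exonic bases with it and had 0, 1, 0 and 1 reads in untreated 1, untreated 2, genistein 1 and genistein 2. The nearest protein-coding genes on either side, Slc5a12 and the predicted gene Gm13941, had 0 reads in all 4 libraries, which allows up to 3 reads in each. The rise was thus counted on Ano3 and on neither side of it.

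Of the 8 neuron markers, given here because Ano3 is best known from neurons, only Syn1, a synaptic vesicle protein gene, passed the filter on low counts. It had 5 and 7 reads against 33 and 37 and passed through the genistein libraries alone, so its difference is given with no test. Rbfox3, Snap25, Elavl4 and Gap43 were at 0 in all 4 libraries. Stmn2 had 2, 0, 0 and 0 reads, Map2 had 0 and 0 against 2 and 2, and Syt1 had 3 and 6 against 8 and 6. The part of these markers in the rise of Ano3 was not tested.

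The genes with the profile most like that of Ano3 were searched among 11780 tested protein-coding genes. Likeness was the largest difference in log2(CPM + 0.5) over the 4 libraries, a description that rests on 4 points. Robo3, a guidance receptor of commissural axons, was nearest, with 4 and 10 reads untreated and 225 and 207 with genistein (largest difference 0.12). Svop, a transporter-like protein of synaptic vesicles, had 3 and 4 against 204 and 183 reads (0.29). Cd80, a co-stimulatory ligand of immune cells, had 6 and 5 against 134 and 117 (0.65). Apc2, a relative of the tumour suppressor Apc, had 11 and 10 against 142 and 107 (0.76). Only Robo3 and Svop thus lay within a difference of 0.5 of Ano3 in every library.

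**Figure D2:**
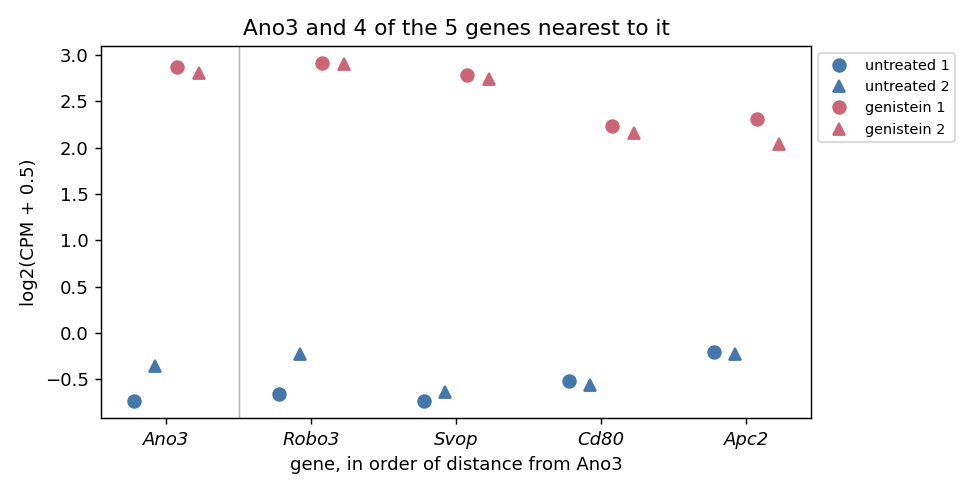
Level of Ano3 and of 4 of the 5 protein-coding genes nearest to it, as log2(CPM + 0.5) in each library; blue is untreated, red genistein, circles replicate 1 and triangles replicate 2. Robo3 and Svop overlay Ano3 to within 0.12 and 0.29, while Cd80 and Apc2 lie lower in both genistein libraries.

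Ano1 fell with genistein. The gene (ENSMUSG00000031075, chromosome 7, 144588549 to 144751974, minus strand) had 215 and 202 reads untreated and 105 and 101 with genistein. Both treated libraries were below both untreated ones by far more than replicates differed. Normalised counts averaged 214 ± 0.65 and 100.3 ± 2.67 (SD, n = 2). The log2 fold change was -1.09, its standard error 0.12 (quasi-likelihood test of edgeR, Benjamini-Hochberg adjusted p = 4.0e-07). Of all tested genes, 5.24%, Ano1 included, had a log2 fold change as low or lower. Ano1 also passed the thresholds of the study for a lower gene, an adjusted p under 0.05, a log2 fold change beyond 1 in size and a mean normalised count over 100, which 4.16% of the tested genes did. The RefSeq promoter shown above starts 13401 bases inside the annotated gene. An antisense gene inside Ano1, Gm44930, had 0, 0, 0 and 1 reads.

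Ano1 is abundant in secretory epithelia, so epithelial markers are given here. Of the 6 listed, 3 were tested and all 3 were lower, beside 38.2% lower over all tested genes. Krt8 fell from 396 and 390 to 133 and 116 reads, Krt18 from 49 and 42 to 9 and 5, and Krt19 from 55 and 47 to 33 and 37. Krt18 passed the filter through the untreated libraries alone, and a gene this scarce with genistein enters the tested set only where it is lower. The summed level of the list was 16.9 and 17.1 CPM untreated and 5.61 and 5.65 CPM with genistein. Epcam was at 0 in all libraries, Cdh1 had 7, 4, 4 and 8 reads and Cldn4 had 0, 0, 0 and 1. The part of these markers in the fall of Ano1 was not tested.

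Ano6, Ano8 and Ano10 rose, each by less than the log2 fold change of 1 that the study required of a gene. Ano6 (ENSMUSG00000064210, chromosome 15, 95790843 to 95974751) had 4238 and 4040 reads untreated and 5199 and 4950 with genistein. Its normalised counts of 4255 ± 30.8 and 4943 ± 95.6 (SD, n = 2) differed by 0.22 on the log2 scale, with standard error 0.03 (edgeR, adjusted p = 1.7e-05). The scramblase gene was therefore 1.16-fold higher, with groups that did not overlap. Several genes on the other strand overlap Ano6. A130051J06Rik, which shares 214 exonic bases with it, had 7, 11, 9 and 10 reads, in the same library order as above. Gm49172 shares 122 exonic bases with Ano6 but was not among the counted genes, so its reads are not known.

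Ano8 (ENSMUSG00000034863, chromosome 8, 71476019 to 71485963) had 828 and 759 reads untreated and 1000 and 946 with genistein. Normalised counts were 815 ± 16.7 and 948 ± 14.0 (SD, n = 2). They differed by 0.22 on the log2 scale, with standard error 0.06 (edgeR, adjusted p = 0.0024). Dda1, a ubiquitin ligase component that overlaps the end of Ano8 by 80 exonic bases on the other strand, moved the other way. It had 1214 and 1162 reads against 1096 and 1081, or -0.20 on the log2 scale (edgeR, adjusted p = 0.0024).

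Ano10 (ENSMUSG00000037949, chromosome 9, 122175874 to 122294423) had 1048 and 922 reads untreated and 1383 and 1275 with genistein. Its normalised counts averaged 1012 ± 50.1 untreated and 1294 ± 4.45 treated (SD, n = 2), higher by 0.35 on the log2 scale, with standard error 0.05 (edgeR, adjusted p = 1.5e-05). This 1.28-fold difference was larger than the spread between replicates, though the untreated libraries lay further apart than the treated ones.

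Of the 9 members other than Ano3, 4 were tested, and an adjusted p under 0.05 was reached by 3 that were higher and 1 that was lower. Among all tested genes 33.5% were higher and 38.2% lower by that rule, so that most genes passed it in one direction or the other. With the thresholds of the study none of the 4 tested among these 9 members was higher, against 3.92% of all tested genes. With a share this small, 4 genes are too few to read anything from that. Ano3 was given no test, so it was not counted under these thresholds. Over the 5 members that passed the filter on low counts, the median log2 fold change was 0.22, beside -0.03 over all tested genes. It includes Ano3, which was chosen by its value, so nothing is read from it. The 5 remaining members had too few reads for the filter.

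**Figure D3:**
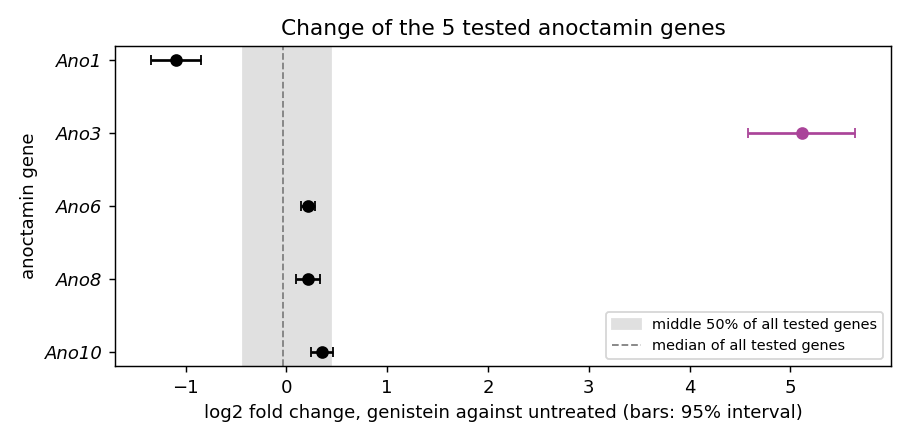
Fitted log2 fold change, genistein against untreated, of the 5 anoctamin genes that passed the filter on low counts (edgeR, n = 2 libraries per group). Bars are 95% intervals, the grey band is the middle 50% of all 16240 tested genes and the dashed line their median. Ano6, Ano8 and Ano10 lie inside the band at 0.22, 0.22 and 0.35, Ano1 below it at -1.09 and Ano3 (purple, drawn as a description) above it at 5.11. The bar of Ano3 is not a test, since Ano3 was chosen by this rise and passed the filter through the genistein libraries alone.

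Ratios of raw counts within a library are free of any scaling between libraries. Ano8 had 0.195 and 0.188 reads per Ano6 read untreated and 0.192 and 0.191 with genistein. The ranges of this ratio overlapped, so a difference between the changes of Ano8 and Ano6 was not seen. Ano10 had 0.247 and 0.228 reads per Ano6 read untreated and 0.266 and 0.258 with genistein, a small shift without overlap. Ano1 dropped from 0.0507 and 0.050 to 0.0202 and 0.0204 reads per Ano6 read. The order of Ano3 and Ano1 was exchanged: there were 0.0140 and 0.0396 Ano3 reads per Ano1 read untreated and 2.08 and 1.90 with genistein.

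The summed level of the family per length was 22.5 ± 0.26 RPKM in the untreated and 26.9 ± 0.30 RPKM in the genistein libraries (SD, n = 2). Ano6 supplied 50.9% and 52.2% of it untreated and 49.8% and 50.3% with genistein. The share of Ano1 was 5.07% and 5.13% untreated and 1.97% and 2.02% with genistein. Ano3 went from 0.0612% and 0.176% to 3.55% and 3.32%. Even after its rise Ano3 thus remained a minor part of anoctamin RNA, well below Ano8 with 17.2% in either genistein library.

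**Figure D4:**
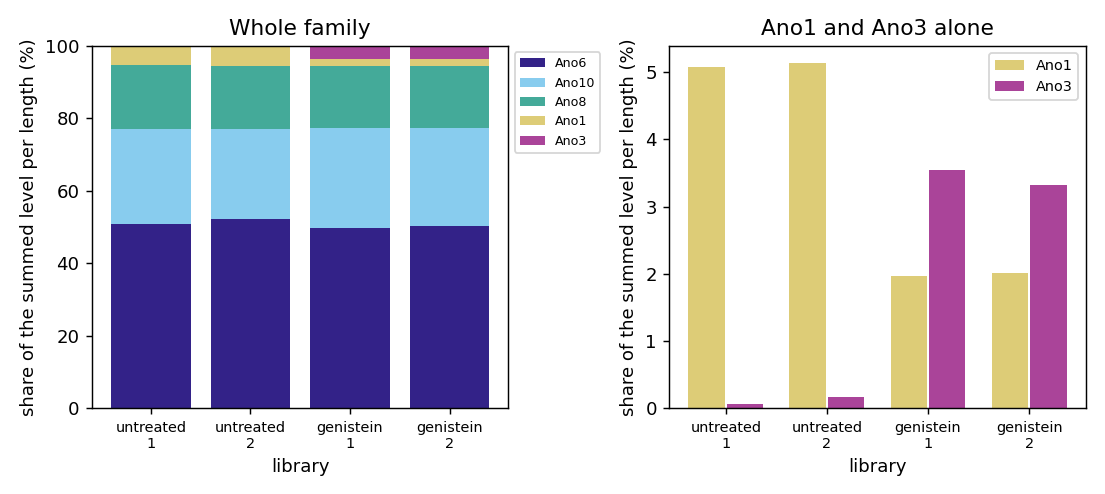
Share of each library's summed anoctamin level per length taken by the 5 highest members (left) and by Ano1 and Ano3 alone on a wider scale (right), in percent. Ano6 takes 49.8% to 52.2% in every library, Ano1 is at 5.07% and 5.13% untreated, and Ano3 passes Ano1 in both genistein libraries with 3.55% and 3.32%.

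Ano2 and Ano9 were near the limit of detection. Ano2 had 3 and 3 reads in the untreated and 0 and 3 in the genistein libraries, and Ano9 had 0 and 1 against 3 and 3. Summed per group, the exact Poisson 95% intervals of Ano2 were 2.20 to 13.1 reads for 6 and 0.619 to 8.77 for 3. Those of Ano9 were 0.0253 to 5.57 for 1 and 2.20 to 13.1 for 6. In each gene the intervals overlapped, so no difference was detectable at this depth. Fitted without the filter, the 95% interval of the log2 fold change ran from -3.35 to 1.27 for Ano2 (adjusted p = 0.54, edgeR) and from -0.79 to 5.25 for Ano9 (adjusted p = 0.26, edgeR).

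Ano4, Ano5 and Ano7 had 0 reads in all 4 libraries. A count of 0 allows up to 3 reads in a library, or levels of up to 0.0146 RPKM for Ano4, 0.0136 for Ano5 and 0.0267 for Ano7. Ano5 belongs to muscle, and among 8 skeletal muscle markers Myod1, Myf5 and Ckm were also at 0 throughout. Myog had 0, 0, 1 and 0 reads. The muscle list nevertheless summed to 1.56 and 1.94 CPM untreated and to 10.3 and 10.8 CPM with genistein. Most of this was Des, the intermediate filament gene desmin, with 37 and 28 against 302 and 261 reads. Acta1, a skeletal muscle actin gene, had 15 and 10 against 31 and 29 reads. Ttn had 6 and 4 against 10 and 14, and Myh3 had 0 and 2 against 2 and 1.

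Genes that share the chemistry or the signal of the anoctamins were compared next, in lists written from general knowledge. The closest relatives by protein fold are the TMC channels and the TMEM63 mechanosensitive channels. Of 11 such genes 6 were tested, with 4 higher and 1 lower at an adjusted p under 0.05, beside 33.5% higher and 38.2% lower over all tested genes. The median log2 fold change was 0.52. The same shares over all genes apply to each list below, and nothing particular to a list is read from its count. Tmem63b rose from 1158 and 1118 to 2107 and 1861 reads (log2 fold change 0.72, standard error 0.05). Tmc7 had 0 and 3 reads against 13 and 14, a ratio of 8.52 with a counting interval of 2.62 to 43.9, and Tmc8 had 7 and 3 against 14 and 18 (log2 fold change 1.58). Both passed the filter through the genistein libraries alone, and a gene this scarce in untreated cells enters the tested set only where it is higher.

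Other lipid scramblases, the job of Ano6, were mixed. Of 14 listed genes 11 were tested, 6 were higher, 3 were lower and the median was 0.28. Atg9b, a scramblase of autophagy membranes, rose from 40 and 29 to 306 and 208 reads (log2 fold change 2.81). Xkr5, a relative of the scramblase Xkr8 that acts in dying cells, rose by a log2 fold change of 0.93, and Plscr2 fell by 0.59. The flippases, which return lipids to the inner leaflet, had 6 higher and 2 lower among 11 tested of 17 listed, with a median of 0.28. Atp8a1 and Atp10d were higher by 1.09 and 0.75 on the log2 scale.

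Chloride channels of other families stand beside Ano1. Of 22 listed genes 15 were tested, 7 were higher and 4 lower, with a median of 0.10. Clcn1, a voltage-gated chloride channel best known from muscle, fell from 124 and 125 to 41 and 43 reads (log2 fold change -1.64, standard error 0.16). Lrrc8d, a subunit of the volume-regulated channel, and Ttyh3 rose by 1.12 and 0.77. The bestrophins Best1, Best2 and Best3, which are also calcium-activated chloride channels, had at most 5 reads in any library.

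Calcium is the signal that opens the channels Ano1 and Ano2. Of 21 genes listed for its release, entry and removal 15 were tested, 9 were higher and 1 was lower, beside the 33.5% and 38.2% over all tested genes, with a median log2 fold change of 0.62. P2rx7, an ATP-gated channel, rose from 131 and 119 to 469 and 435 reads (log2 fold change 1.78). Itpr2, a calcium release channel of the ER, and Atp2b4, a calcium pump of the plasma membrane, rose by 1.64 and 1.42. The 1 lower gene was Atp2a2, the calcium pump of the ER, named here after its values were seen, with 12098 and 11002 reads against 9337 and 8748 (log2 fold change -0.43). The pump genes Atp2b1 and Atp2a3 did not pass the test. Neither this list nor any other was tested as a set.

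Ano8 works at contacts between ER and plasma membrane. Among 11 listed contact proteins 10 were tested, 5 were higher and 2 lower, with a median of 0.15. Gramd1b and Osbpl5, both lipid transfer proteins, were higher by 0.83 and 0.51, and the ER anchor Vapa was lower, at -0.41. Of the sodium-activated potassium channels, Kcnt1 was at 0 in all libraries. Kcnt2 had 8 and 15 reads untreated and 45 and 40 with genistein, and it too passed the filter through the genistein libraries alone.

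**Figure D5:**
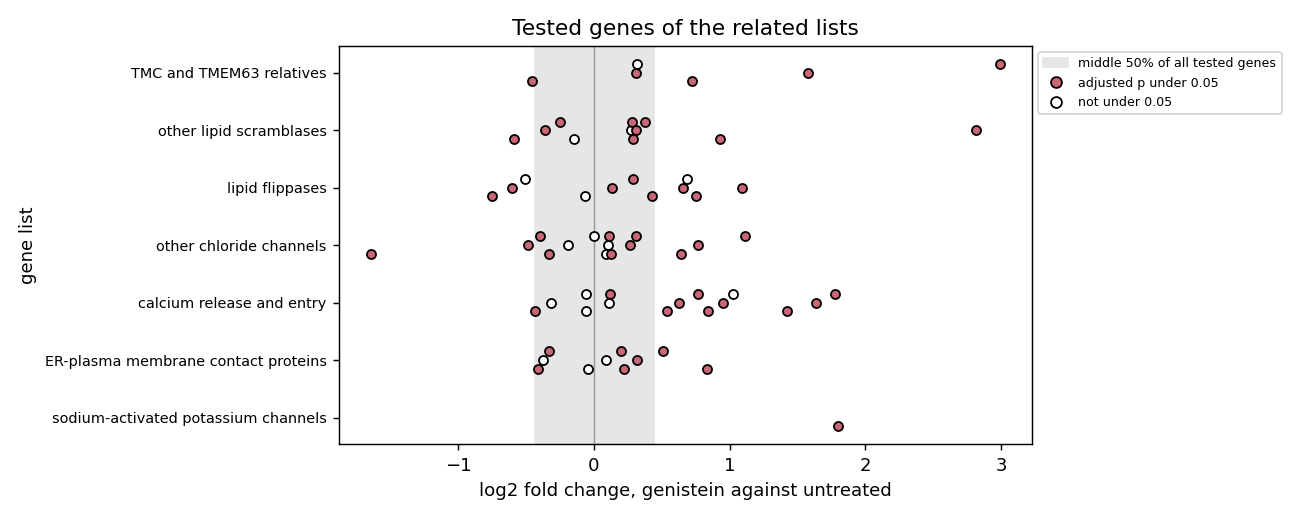
Fitted log2 fold change, genistein against untreated, of each tested gene in the 7 related lists, 1 point a gene, red where the adjusted p (edgeR) was under 0.05 and open otherwise; the grey band is the middle 50% of all tested genes. Points of most lists fall on both sides of 0, with Tmc7, Atg9b and P2rx7 furthest right at 2.99, 2.81 and 1.78 among their lists and Clcn1 furthest left at -1.64. Tmc7, Tmc8 and Kcnt2 passed the filter on low counts through the genistein libraries alone, so no call is read from their red points.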

How the data were processed

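Total RNA was sequenced from 4 mouse embryonic fibroblast libraries. The authors removed ribosomal RNA, trimmed the paired-end reads (Trim Galore), used STAR for alignment to mm10 with multiple alignments retained, and counted reads over GENCODE genes and repeat subfamilies with TEtranscripts. The deposited values are raw counts. The strand setting of the counting is not given in the sources used here, so reads of overlapping genes on opposite strands cannot be told apart. Of 49383 entries, 47937 were genes, of which 47224 had a symbol. The 1 entry without a name held at most 0.00314% of a library and was left out.

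Genes and repeats were fitted together with edgeR 4.0.16 (R 4.3.3). filterByExpr kept 16240 genes and 1118 repeats, TMM factors (trimmed mean of M-values) scaled the libraries, and groups were compared with the quasi-likelihood test. P-values were adjusted by Benjamini-Hochberg across everything kept. The study used DESeq2, which served here as an alternative (1.42.0). Standard errors were derived from each fold change and its F statistic. An exact permutation test (two-sided) of 2 against 2 libraries gives no p smaller than 0.333. The fit was tested on simulated counts.

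Levels were compared between genes as RPKM (counts divided by library size and by the kilobases of merged exons), with exon lengths and coordinates from GENCODE M21 on GRCm38, the assembly of mm10, counted from 1. That release is later than the one the authors counted on. Promoter sequences came from RefSeq (GRCm38.p6). Members and gene lists were chosen with earlier results of these data known. Named were all 10 members, up to 3 genes per list with the largest log2 fold change at an adjusted p under 0.05, genes overlapping a member or next to Ano3, and the 5 genes nearest to Ano3 in log2(CPM + 0.5), predicted genes and pseudogenes aside. Of the genes so chosen, 2 are not reported here. Counting intervals cover counting error only, since without molecular identifiers a read need not stand for a separate molecule. Alternatives covered scaling, filter, tool, thresholds, prior count, blocking by replicate and omission of single libraries.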

Additional observations from a re-analysis of the deposited data

How the results depend on the processing

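Of the 9 members other than Ano3, 3 were higher and 1 was lower under each other scaling, without the filter, with genes fitted alone, with DESeq2 and in each fit that left out a library. Only the thresholds of the study changed this, to 0 higher and 1 lower, because the rises of Ano6, Ano8 and Ano10 were below a log2 fold change of 1. The median log2 fold change of the 5 members that passed the filter, 0.22, was 0.29 with library totals alone. It was 0.26 both with TMM factors from genes alone and with genes fitted alone. It lay from 0.20 to 0.24 in the fits without 1 library. Ano1 lay from -1.12 to -1.03, Ano6 and Ano8 from 0.19 to 0.29 and Ano10 from 0.31 to 0.42 over these alternatives and a prior count of 2. The largest adjusted p of any of them was 0.040, for Ano8 with DESeq2. Ano3 lay from 4.54 to 6.0, both ends set by which untreated library was left out, and was 4.72 with a prior count of 2.

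The replicate block gave 3 higher and 1 lower, a median of 0.22 and 5.11 for Ano3. Libraries sharing a number did not deviate together (r = -0.03, 2 pairs), so a pairing by number was not shown. Depth limits Ano2 and Ano9, with at most 3 reads in a library, and the size of the change of Ano3, with 11 untreated reads in all.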
